A study of Homo sapiens with 16 samples.

Results

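The genes described here are those of the spliceosomal and histone-processing U RNAs and of the 7SK and 7SL RNAs, measured in a human line of multiple myeloma, NCI-H929. They were chosen by symbol (RNU1-, RNVU1-, RNU2-, RNU4, RNU5, RNU7-, RNU11 and RNU12 genes, RN7SK, and RN7SL1 to RN7SL3) and by a total of at least 20 counts over all 16 libraries. Of 57500 genes in the tables, 513 had such a symbol and 90 of these reached 20 counts. The 90 members were 31 of U1, 13 of U2, 16 of U4, 2 of U4atac, 8 of U5, 17 of U7, 1 of U11 and 2 of 7SL. No U12 gene and not RN7SK reached the limit, and 257 of the 513 genes had 0 counts in every library. A pseudogene symbol, one ending in P, was borne by 58 members, and 32 had none. The members just inside the limit were RNU2-10P, RNU2-46P and RNU4-8P with 20 counts each, and RNVU1-2 lay just outside it with 19. Because the total is the value that selected them, a gene high in 1 group could enter through that group: 17 members had under 20 counts outside the NTC libraries.

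The study held 4 groups of 4 bulk RNA-seq libraries, all of the same cell line and all labelled batch 1. One experiment exposed cells for 6 h to compound 27 at 3 nM, which degrades p300, and compared them with cells given the solvent DMSO. Cells labelled p300 KO were compared with cells labelled NTC, an abbreviation that the labels do not spell out. The acetyltransferase p300, encoded by EP300, acetylates histones and coactivates transcription. The labels give neither how the knockout was made nor whether it was 1 clone or a pool, and they do not say whether replicates were separate cultures, so every p-value measures the spread between these libraries, which may be technical. Libraries were made with a NEBNext Ultra II RNA kit, and whether poly(A) RNA was selected is not given in the sources used here.

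U snRNAs are short nuclear RNAs without a poly(A) tail that form the core of the splicing machinery. U1 pairs with the start of an intron and U2 with its branch point, U4, U5 and U6 join as a complex, and U11, U12, U4atac and U6atac do the same for a minor class of introns. U7 guides the cutting of histone mRNA ends. RNA polymerase II makes these RNAs (U6 and U6atac excepted), the Integrator complex cuts their 3′ ends, and a ring of Sm proteins, loaded by the SMN complex, binds a U-rich site in them. 7SK, made by RNA polymerase III, holds the elongation kinase P-TEFb inactive. 7SL, also made by RNA polymerase III, is the RNA of the signal recognition particle, which carries secretory proteins to the endoplasmic reticulum, a heavily used route in plasma cells.

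The values depend on which copy a read is assigned to, so the sequences of the U1 copies are shown first (GENCODE 29 transcripts, GRCh38). RNU1-1 (chr1:16514122-16514285, minus strand) stands for the 8 members that share 1 sequence of 164 bases: RNU1-1, RNU1-2, RNU1-3, RNU1-4, RNU1-27P, RNU1-28P, RNVU1-18 and RNVU1-29. Its capitals mark the Sm motif searched for, AATTTNT. RNVU1-7 (chr1:148038753-148038916, minus strand), RNVU1-31 (chr1:145465617-145465780, minus strand) and RNVU1-26 (chr1:144523860-144524021, minus strand) held most U1 counts, and their capitals mark the bases that differ from or are inserted relative to RNU1-1.
RNU1-1: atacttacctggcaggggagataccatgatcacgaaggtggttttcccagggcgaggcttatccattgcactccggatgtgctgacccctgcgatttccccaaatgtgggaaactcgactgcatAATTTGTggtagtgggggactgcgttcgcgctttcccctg
RNVU1-7: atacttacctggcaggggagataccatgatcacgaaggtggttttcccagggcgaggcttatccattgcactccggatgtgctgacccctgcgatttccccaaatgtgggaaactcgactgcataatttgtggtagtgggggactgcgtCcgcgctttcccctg
RNVU1-31: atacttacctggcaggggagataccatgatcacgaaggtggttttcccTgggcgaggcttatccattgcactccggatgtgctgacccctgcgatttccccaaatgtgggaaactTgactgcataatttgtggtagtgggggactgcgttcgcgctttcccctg
RNVU1-26: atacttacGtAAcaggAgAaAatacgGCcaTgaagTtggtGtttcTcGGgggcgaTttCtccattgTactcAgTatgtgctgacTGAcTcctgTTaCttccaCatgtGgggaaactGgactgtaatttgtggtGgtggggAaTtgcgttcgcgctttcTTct
RNVU1-7 had 99.4% identity to RNU1-1 and RNVU1-31 had 98.8%, with 1 and 2 differing bases. RNVU1-26 had 74.4% identity, with 34 capitals and 10 bases of RNU1-1 missing.

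The next sequences are the members with the most counts among those of U4atac, U11 and U4 that carry no pseudogene symbol, with the Sm motif in capitals. RNU4ATAC lies at chr2:121530881-121531007, plus strand, in an intron of CLASP1-AS1 and opposite CLASP1. RNU11 lies at chr1:28648600-28648733, plus strand, and RNU4-2 at chr12:120291763-120291903, minus strand.
RNU4ATAC: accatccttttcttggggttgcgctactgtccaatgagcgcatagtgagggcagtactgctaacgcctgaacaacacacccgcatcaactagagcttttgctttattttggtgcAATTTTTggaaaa
RNU11: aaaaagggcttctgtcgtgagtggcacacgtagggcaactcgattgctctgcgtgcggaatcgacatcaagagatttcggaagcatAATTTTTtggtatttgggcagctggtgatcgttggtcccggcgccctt
RNU4-2: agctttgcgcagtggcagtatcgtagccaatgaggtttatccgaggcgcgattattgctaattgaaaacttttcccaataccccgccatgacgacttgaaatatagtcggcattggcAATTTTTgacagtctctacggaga
The motif was found in 55 of the 90 members (61.1%) and in 301 of the 513 genes of the rule (58.7%), so the members did not stand apart in it. On the reverse strand it was found in 18 of the 513 (3.5%). Among the classes it was present in 24 of 31 U1, 7 of 8 U5, 14 of 17 U7, 6 of 16 U4 and 2 of 13 U2 members.

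Most counts of all members fell on the pair of 7SL members, RN7SL2 and RN7SL3. The treatment of reads that match several copies is not given in the sources used here, so counts of single copies of U1 and of 7SL are uncertain, and sums over a class are given beside them.

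Libraries held 12.59 to 23.12 M counts (M, mega). Genes of the mitochondrial genome took 64.87% of counts in degrader 2 and 47.74% in KO 1, against 5.99% to 23.49% in the other 14 libraries. Levels are therefore given as nuclear CPM, the counts-per-million scale over all genes outside the mitochondrial genome. Nuclear counts ran from 4.42 to 20.75 M, and a count of 0 allows up to 0.145 to 0.678 nuclear CPM (3 counts, counting error only). EP300 had 61.64, 184.49, 59.37 and 62.81 nuclear CPM in degrader libraries, against 47.31, 58.74, 58.89 and 54.79 in DMSO. It had 59.85, 45.59, 40.05 and 44.98 nuclear CPM in KO libraries, against 117.76, 109.89, 108.94 and 111.43 in NTC (log2 fold change -1.25 ± 0.11 SE, edgeR adjusted p = 0.00022). EP300 was thus lower in KO than in NTC, while against DMSO, KO 2, 3 and 4 lay below every library and KO 1, the one rich in mitochondrial counts, above every library. All 8 plasma cell markers were detected, with a summed level of 3170 to 4790 nuclear CPM across degrader libraries, 4166 to 4400 in DMSO, 3698 to 4690 in KO and 4575 to 4774 in NTC. Of 18 markers of other blood cells and tissues, 10 were under 1 nuclear CPM in every group, and their sum ran from 45.52 to 62.86 in degrader libraries, 68.82 to 76.46 in DMSO, 71.33 to 77.18 in KO and 87.52 to 101.0 in NTC. These sums moved with the groups, and their part in the results was not tested. In bulk RNA, fewer cells with a transcript and less of it per cell cannot be told apart.

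The 7SL RNA, the scaffold of the signal recognition particle, was lower with the degrader than with DMSO. The 7SL sum was 234.7, 139.0, 218.3 and 246.1 nuclear CPM in degrader libraries, against 606.8, 571.3, 735.8 and 589.5 in DMSO libraries. All 4 degrader libraries lay below all 4 DMSO libraries, and the mean was 2.99-fold lower (209.5 ± 48.4 against 625.9 ± 74.7, SD, n = 4 each). RN7SL2 had 220.7, 125.9, 205.4 and 232.3 nuclear CPM in degrader libraries, against 571.2, 526.4, 684.1 and 547.8 in DMSO. RN7SL3 had 13.94, 13.11, 12.92 and 13.83 nuclear CPM with the degrader, against 35.61, 44.87, 51.68 and 41.79 with DMSO. Neither copy overlapped between the groups. Here and below, the share of all genes without overlap between groups is not given. In edgeR's quasi-likelihood test, with Benjamini-Hochberg adjustment over all 15872 genes tested, RN7SL3 fell by 1.62 ± 0.13 on the log2 scale (adjusted p = 0.000645) and RN7SL2 fell by 1.49 ± 0.21 (adjusted p = 0.0065). The mitochondrial share was 5.99% to 6.96% in degrader 1, 3 and 4, against 13.4% to 23.49% in DMSO. Degrader 2, the library with 64.87%, had the lowest 7SL sum of its group. Without it, where edgeR called 38.5% of all genes, RN7SL2 fell by 1.33 ± 0.10 (adjusted p = 2.96e-07). With scaling to total counts the adjusted p of RN7SL2 was 0.147, which ended its call, while RN7SL3 stayed called in all 13 alternatives.

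In the knockout experiment 7SL lay far lower in both groups than in DMSO. The sum was 120.7, 142.4, 131.2 and 344.1 nuclear CPM in KO libraries, against 107.9, 105.2, 106.0 and 103.8 in NTC libraries. The 4 KO libraries were above the 4 NTC libraries, but KO 4 alone lay well above the other KO libraries in this sum. RN7SL3 was instead highest in KO 1, with 140 counts in 8.66 M nuclear counts, against 226 in 18.32 M in KO 4. RN7SL2 had a log2 fold change of 0.79 ± 0.32 (edgeR adjusted p = 0.115) and RN7SL3 one of 0.90 ± 0.29 (adjusted p = 0.0602), so neither passed. Without KO 1, where 40.9% of all genes were called, both did, at 0.96 ± 0.14 for RN7SL2 (adjusted p = 2.22e-07) and 0.62 ± 0.15 for RN7SL3 (adjusted p = 0.000868). Without KO 4 the value of RN7SL2 was 0.28 ± 0.10 (adjusted p = 0.0955), so its size rests on that library. That of RN7SL3 was then 0.79 ± 0.32 (adjusted p = 0.133). With KO 1 and KO 4 both left out, a choice made after seeing the data, RN7SL2 was at 0.38 ± 0.05 (adjusted p = 4.34e-07) and RN7SL3 at 0.25 ± 0.14 (adjusted p = 0.182). In that setting 6300 of all 18183 genes tested were called. The gap between the control groups was larger than either effect: NTC was 5.92-fold below DMSO in the 7SL sum, RN7SL2 fell by 2.64 ± 0.08 on the log2 scale (adjusted p = 1.61e-13) and RN7SL3 fell by 3.12 ± 0.11 (adjusted p = 8.32e-13) in NTC. The test of the difference between the KO and degrader effects gave 2.24 ± 0.43 for RN7SL2 (adjusted p = 0.00496) and 2.46 ± 0.31 for RN7SL3 (adjusted p = 0.000196), higher in the KO comparison.

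**Figure D1:**
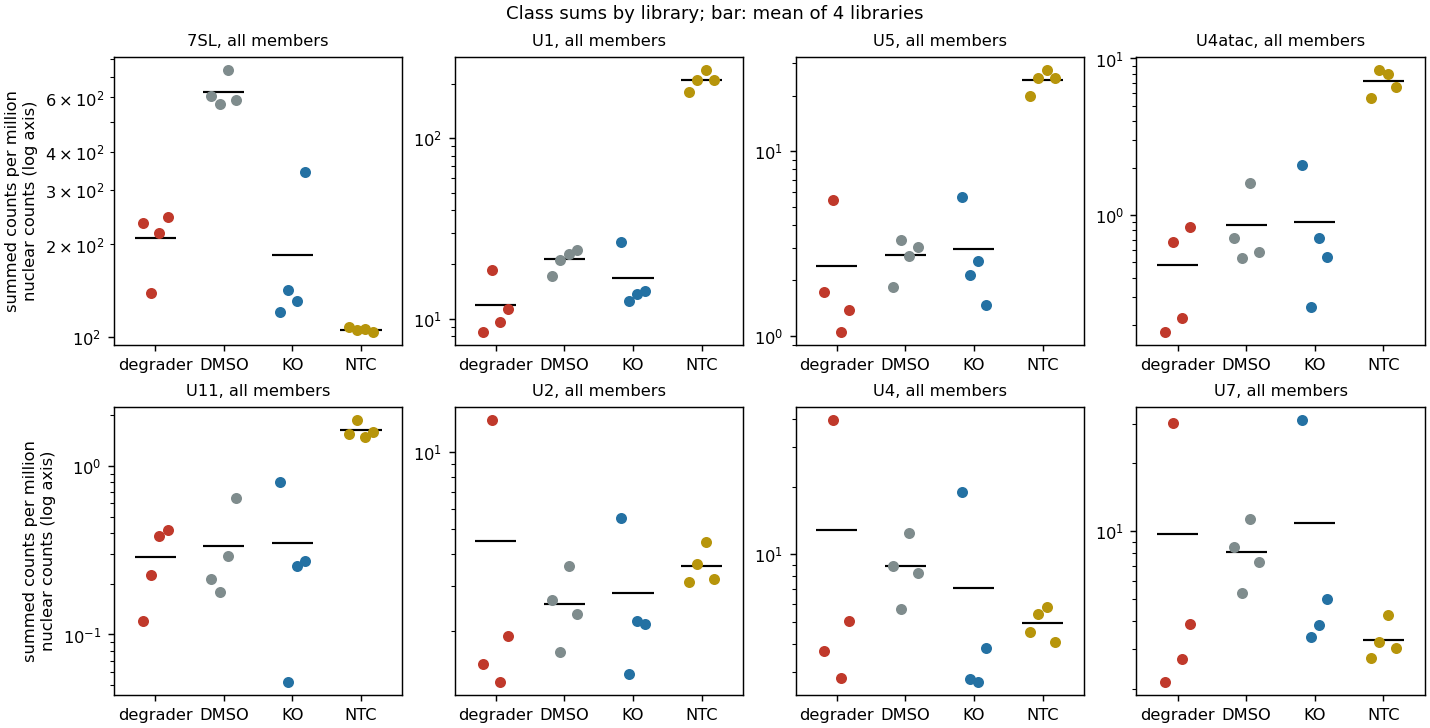
Summed nuclear CPM (log axis) of each RNA class in degrader, DMSO, KO and NTC libraries, with a point per library and a bar at the mean of 4 libraries. NTC stands above the other groups in U1, U5, U4atac and U11, DMSO stands above the other groups in 7SL, and degrader 2 and KO 1 are the high points in U4 and U7.

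U1, the RNA that recognises the start of introns, was high in NTC. The U1 sum was 26.6, 12.5, 13.7 and 14.3 nuclear CPM in KO libraries, against 179.5, 210.2, 237.4 and 208.7 in NTC libraries, a 12.5-fold lower mean in KO. It was 8.44, 18.5, 9.56 and 11.3 nuclear CPM in degrader libraries, against 17.3, 21.2, 22.9 and 24.1 in DMSO libraries. Degrader 2 overlapped DMSO and the other 3 degrader libraries did not. KO 2, 3 and 4 lay below every DMSO library and KO 1 above every one. NTC lay 9.78-fold above DMSO in the mean, with every NTC library above every library of the other groups.

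Most U1 counts in NTC came from 3 genes of chromosome 1. RNVU1-7 had 0.462, 0.314, 0.817 and 0.546 nuclear CPM in KO libraries, against 78.8, 95.5, 109.2 and 92.8 in NTC. RNVU1-31 had 0.231, 0.209, 0.409 and 0.437 nuclear CPM in KO, against 35.3, 40.4, 44.5 and 39.8 in NTC. RNVU1-26 had 3.58, 1.83, 0.971 and 1.58 nuclear CPM in KO, against 24.5, 29.9, 33.3 and 30.2 in NTC. None of the 3 overlapped between KO and NTC (the like share of all genes is not given). In DMSO they averaged 0.372, 0.212 and 1.78 nuclear CPM, close to KO. Together they held 78.3% of NTC's U1 counts, and their sum averaged 1.26 nuclear CPM with the degrader, 2.37 in DMSO, 2.85 in KO and 163.5 in NTC. RNVU1-7 and RNVU1-31 are near-copies of RNU1-1 (the sequences above), whereas RNVU1-26 is a divergent variant.

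The 8 identical U1 copies, where a read within the shared sequence cannot be placed on 1 copy, had a summed level of 0.598, 0, 0.939 and 0.838 nuclear CPM in degrader libraries, against 1.21, 0.711, 1.32 and 1.62 in DMSO. Their sum was 3.12, 1.99, 3.12 and 2.07 nuclear CPM in KO, against 26.02, 27.97, 31.57 and 26.57 in NTC. RNVU1-29 and RNVU1-18 gave the most counts among them, 997 and 654 over all libraries, and RNU1-3 the fewest with 30. RNU1-27P had no count with the degrader, in DMSO or in KO and averaged 0.811 nuclear CPM in NTC. RNU1-27P thus reached the limit of 20 counts through NTC alone, and its reads cannot be told from those of the identical copies. No fold is therefore given for it. The remaining 20 U1 members differed as a sum, in which NTC and DMSO overlapped. That sum averaged 10.1 nuclear CPM with the degrader, 17.8 in DMSO, 11.3 in KO and 17.4 in NTC. Even so, RNVU1-6, RNVU1-28, RNVU1-30 and RNVU1-2A of these 20 were higher in every NTC library than in each other library.

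The U1 members closest in sequence to RNU1-1 were high in NTC, and most of the others were not. All 11 U1 members with at least 98% identity to RNU1-1 were higher in every NTC library than in each of the other 12 libraries. Among the 20 with lower identity, 4 were, namely RNVU1-26, RNVU1-6, RNVU1-30 and RNVU1-2A. RNVU1-15, with 89.1% identity, had 3.58, 2.57, 1.84 and 2.40 nuclear CPM in KO, against 3.72, 3.56, 5.06 and 4.79 in NTC and 2.36, 5.93, 5.15 and 6.08 in DMSO. RNVU1-19, with 92.2% identity, averaged 0.767 nuclear CPM in KO and 0.683 in NTC, against 2.01 in DMSO. NTC was thus not the high group in these variants. The split at 98% was chosen after the values were seen and is a description, and 6 of the 11 had under 20 counts outside NTC. Near-identical copies can share reads, so the 11 are not independent of each other. Across all 90 members, NTC lay above all other libraries in 22, against 7.01% of the nuclear genes with at least 20 counts: 15 of U1, 3 of U5, 2 of U2 and 1 each of U4atac and U11, and in no U4, U7 or 7SL member. Of these 22, 18 had no pseudogene symbol and 4 had one. Besides the 6 above, RNVU1-2A, RNU5F-1 and RNU2-17P of the 22 also had under 20 counts outside NTC. Such members entered through NTC, and identical copies share reads, so the count of 22 is a description and no test.

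**Figure D2:**
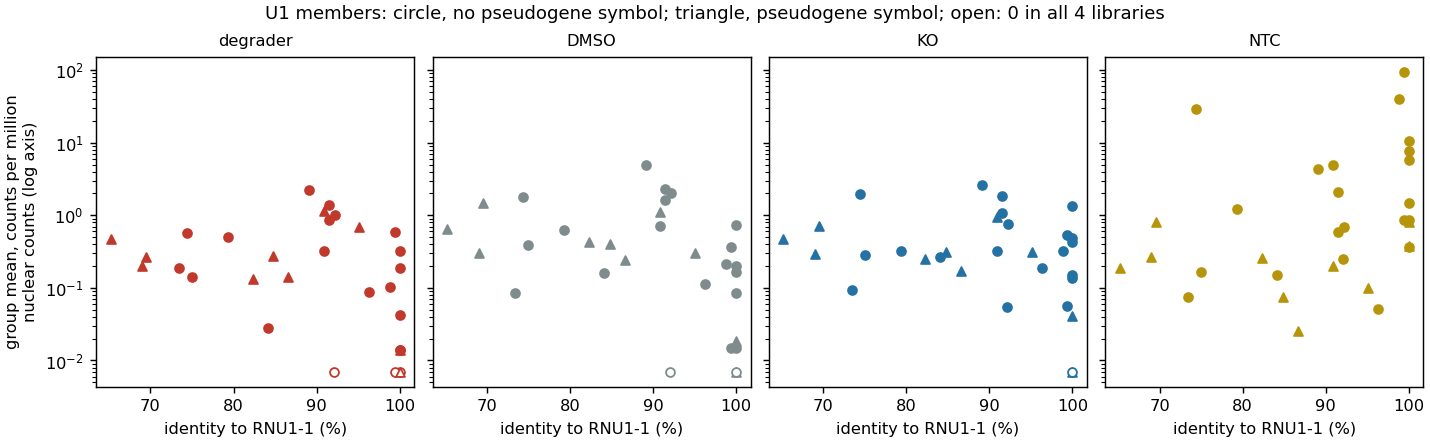
Group mean of each U1 member in nuclear CPM (log axis) against its identity to RNU1-1 in percent, in 1 panel per group. Circles have no pseudogene symbol, triangles have one, and open symbols were 0 in all 4 libraries. The members near 100% identity lie high in NTC and low in the other groups, and most members with lower identity lie at like levels in each panel, with RNVU1-26 the highest of them in NTC.

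U5, which holds the exons together in the spliceosome, was also high in NTC, mainly through RNU5A-1. RNU5A-1 had 0.18, 0, 0.0552 and 0.419 nuclear CPM in degrader libraries, against 0.357, 0.652, 0.588 and 0.259 in DMSO. It had 0.462, 0.890, 0.817 and 0.437 nuclear CPM in KO, against 11.6, 15.7, 17.8 and 14.0 in NTC. KO and NTC did not overlap, and RNU5A-1 fell by 4.44 ± 0.23 on the log2 scale in KO (edgeR adjusted p = 1.2e-05). RNU5E-1, another U5 variant, averaged 0.186 nuclear CPM in KO, against 3.12 in NTC, and fell by 4.05 ± 0.48 (adjusted p = 0.000841). RNU5D-1 had a smaller gap, with 0.924, 0.471, 0.204 and 0.273 nuclear CPM in KO, against 0.774, 0.784, 1.30 and 0.920 in NTC (adjusted p = 0.0894). The U5 sum averaged 2.40 nuclear CPM with the degrader, 2.73 in DMSO, 2.96 in KO and 24.4 in NTC. PARP16, in whose intron RNU5A-1 lies on the opposite strand, averaged 6.34 nuclear CPM with the degrader, 5.66 in DMSO, 8.20 in KO and 8.80 in NTC.

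RNU4ATAC and RNU11 of the minor spliceosome were likewise highest in NTC. RNU4ATAC had 0.120, 0.226, 0.110 and 0.18 nuclear CPM in degrader libraries, against 0.285, 0.356, 0.735 and 0.323 in DMSO. It had 0.578, 0.262, 0.511 and 0.382 nuclear CPM in KO, against 5.52, 8.26, 7.91 and 6.29 in NTC, and fell by 4.06 ± 0.25 on the log2 scale in KO (adjusted p = 2.59e-05). CLASP1-AS1, the gene around it on the same strand, averaged 1.16 nuclear CPM with the degrader, 0.781 in DMSO, 1.76 in KO and 2.74 in NTC. The other U4atac member, RNU4ATAC18P, averaged 0.320 nuclear CPM with the degrader, 0.437 in DMSO, 0.468 in KO and 0.150 in NTC, so NTC was its lowest group. RNU11, which pairs with the start of minor introns, had 0.809, 0.0523, 0.255 and 0.273 nuclear CPM in KO, against 1.55, 1.88, 1.49 and 1.60 in NTC, and fell by 2.47 ± 0.49 (adjusted p = 0.00969). It lies in an exon of ENSG00000270103 on the same strand, which was at 0 in every library. Neither gene passed the count filter in the degrader comparison. RNU12, their partner at the branch point, was listed at 0 in every library. It lies within an exon of another gene on the same strand, ENSG00000270022, which averaged 0.748 nuclear CPM with the degrader, 0.925 in DMSO, 2.10 in KO and 22.2 in NTC.

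U2 was measured only through genes with a pseudogene symbol. RNU2-1, whose sequence is that of the main human U2 RNA, was listed at 0, as was RNU2-2P, which lies in an exon of WDR74. RNU2-17P had 0, 0, 0.102 and 0 nuclear CPM in KO, against 1.08, 1.52, 1.25 and 0.871 in NTC. RNU2-63P had 0.116, 0.0523, 0.460 and 0.328 nuclear CPM in KO, against 0.981, 0.993, 1.35 and 1.21 in NTC. Both were below NTC in each KO library and passed the test (adjusted p = 0.00113 and 0.0141). Both passed the count filter through NTC only, so that their passing and their direction are not independent. RNU2-17P had 13 counts outside NTC and is a member through NTC alone. RNU2-28P went another way, with 0.18, 7.01, 0.0552 and 0.419 nuclear CPM in degrader libraries and 2.20, 0.157, 0.102 and 0.273 in KO libraries, high in degrader 2 and KO 1 alone.

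**Figure D3:**
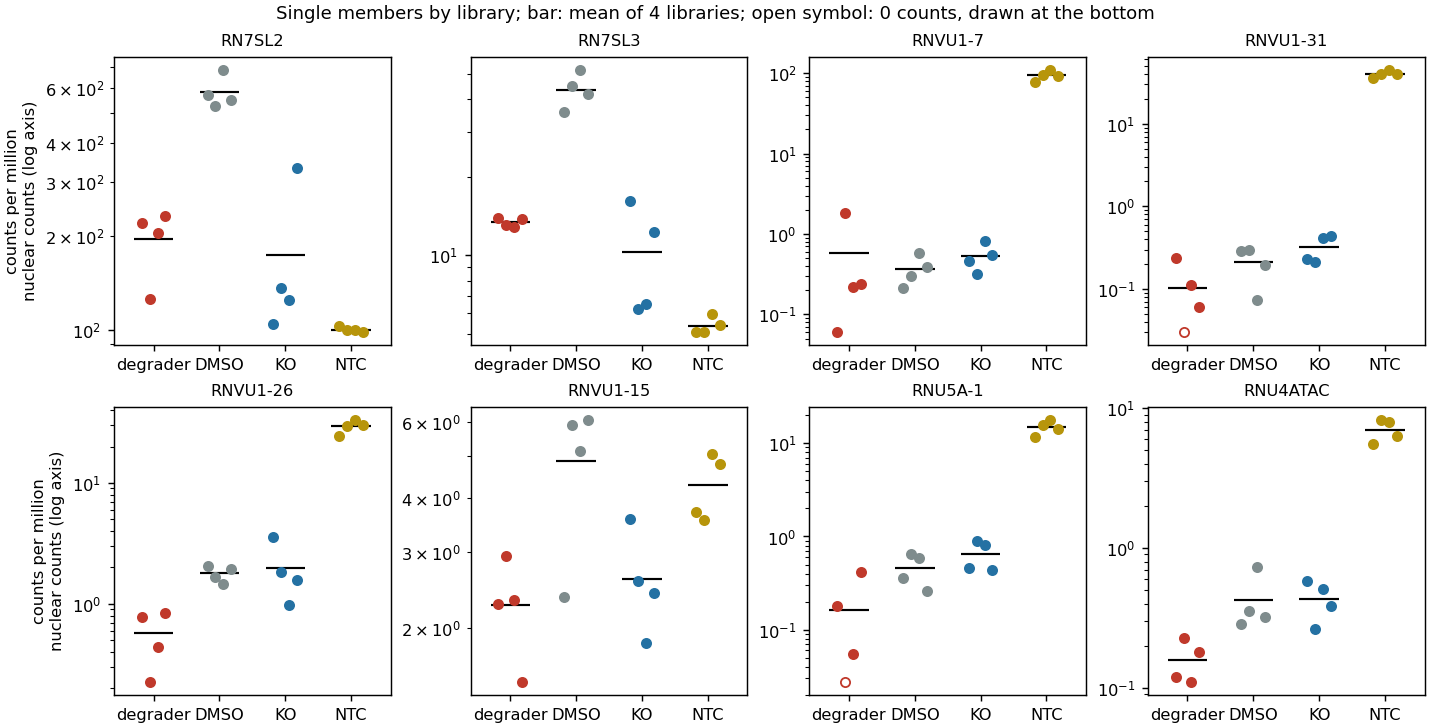
Nuclear CPM (log axis) of RN7SL2, RN7SL3, 4 U1 members, RNU5A-1 and RNU4ATAC, with a point per library and a bar at the mean of 4 libraries. Open symbols had 0 counts and are drawn at the bottom. RNVU1-7, RNVU1-31, RNVU1-26, RNU5A-1 and RNU4ATAC are high only in the NTC column of these panels, RNVU1-15 spans a like range in DMSO and NTC, and the 7SL pair is high in DMSO.

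U4, which delivers U6 to the spliceosome, had RNU4-2 as its main copy without a pseudogene symbol. RNU4-2 had 0.347, 0.419, 0.307 and 0.328 nuclear CPM in KO, against 1.29, 1.93, 1.69 and 1.65 in NTC, and fell by 2.21 ± 0.25 on the log2 scale (adjusted p = 0.000755). It had 0.18, 11.3, 0.387 and 0.240 nuclear CPM in degrader libraries, against 0.571, 0.830, 1.47 and 1.42 in DMSO. The degrader value of 1.21 ± 1.25 did not pass (adjusted p = 0.631). Without degrader 2, where 38.5% of all genes were called, the sign of RNU4-2 changed, to -1.87 ± 0.47 (adjusted p = 0.00621). RNU4-1, its neighbour on chromosome 12, was likewise at 5.88 nuclear CPM in degrader 2, against 0.120 to 0.497 in the other degrader libraries. The U4 sum averaged 12.8 nuclear CPM with the degrader, 8.85 in DMSO, 7.09 in KO and 4.96 in NTC. The degrader and KO means rest on 1 library each, since U4 reached 39.8 nuclear CPM in degrader 2 and 19.1 in KO 1.

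U7 was measured through 17 members, all with a pseudogene symbol, and degrader 2 and KO 1 had its highest sums. The U7 sum was 2.15, 30.1, 2.71 and 3.89 nuclear CPM in degrader libraries, against 8.49, 5.34, 11.3 and 7.31 in DMSO. It was 31.2, 3.402, 3.83 and 5.02 nuclear CPM in KO, against 2.74, 3.24, 4.24 and 3.05 in NTC. Apart from degrader 2 the degrader libraries lay below DMSO, and KO 1 alone stood far above NTC. RNU7-57P, in an intron of ATP8B2, had 0.155, 0.314, 0.530 and 0.242 nuclear CPM in NTC, against 1.07, 0.771, 1.18 and 1.10 in DMSO, and fell by 1.79 ± 0.36 on the log2 scale in NTC (adjusted p = 0.000289). RNU7-61P, opposite ITGAL, averaged 0.935 ± 0.159 nuclear CPM in NTC, against 1.23 ± 0.54 in DMSO, and did not pass (adjusted p = 0.209). Of the 17 U7 members, 2 were tested in the degrader comparison and 2 in the KO comparison, and none passed. Without degrader 2, where edgeR called 38.5% of all genes, RNU7-57P fell by 2.02 ± 0.42 with the degrader (adjusted p = 0.00217). RNU7-61P then fell by 2.26 ± 0.50 (adjusted p = 0.00292), and RNU7-181P did not pass (adjusted p = 0.0876).

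The summed levels of members with a pseudogene symbol were highest in degrader 2 and KO 1, the libraries with the most mitochondrial counts. This held for members inside introns of other genes on the same strand and for those outside. There were 30 inside such introns, among them RNU4-62P in an intron of HCLS1 and RNU7-45P in one of CFLAR. Their sum was 5.27, 59.2, 5.08 and 8.92 nuclear CPM in degrader libraries, against 17.4, 8.71, 20.3 and 12.1 in DMSO. It was 47.6, 4.76, 6.79 and 7.64 nuclear CPM in KO libraries, against 4.44, 5.59, 6.75 and 5.18 in NTC. The highest of all 16 libraries was degrader 2 for 11 and KO 1 for 9 of the 30. Over all 58 members with a pseudogene symbol it was degrader 2 for 17 and KO 1 for 16. The like shares among all genes are not given here. The 28 outside such introns had a sum of 4.19, 17.9, 3.04 and 5.21 nuclear CPM in degrader libraries, against 8.35, 8.42, 12.4 and 9.64 in DMSO. Theirs was 21.1, 4.55, 5.06 and 5.57 nuclear CPM in KO, against 10.3, 12.7, 13.6 and 11.6 in NTC. RNU4-62P reached 14.5 nuclear CPM in degrader 2 and 7.51 in KO 1, against 0.361 to 3.82 in the other 14 libraries. RNU7-45P reached 4.30 and 7.97 nuclear CPM in that pair. HCLS1 itself averaged 307 ± 86 nuclear CPM with the degrader, against 318 ± 53 in DMSO, and CFLAR 76.6 ± 8.7 against 94.5 ± 5.1. The 30 members of U1, U4, U4atac, U5 and U11 with no pseudogene symbol had their highest sums in NTC, 202 to 269 nuclear CPM, where the mitochondrial share was 8.91% to 10.27%. Within their groups degrader 2 and KO 1 were again the highest, at 30.97 nuclear CPM in degrader 2, against 8.38 to 10.66 in the other degrader libraries, and at 22.18 in KO 1, against 13.19 to 14.3 in the other KO libraries. The part of the mitochondrial share in these values was not tested.

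**Figure D4:**
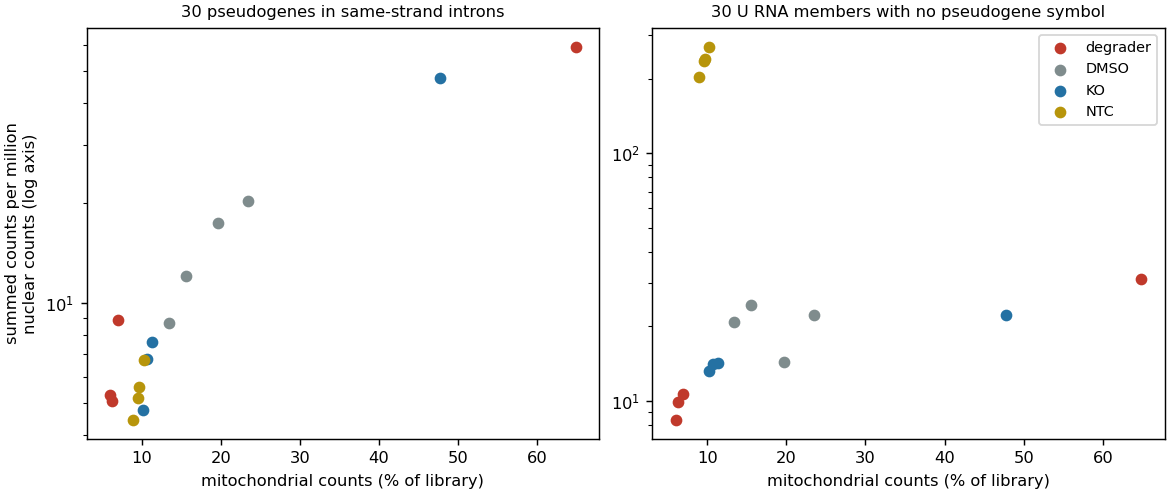
Summed nuclear CPM (log axis) against the mitochondrial share of each library in percent, for the 30 pseudogene members in same-strand introns (left) and the 30 U RNA members with no pseudogene symbol (right). The high points on the left are degrader 2 and KO 1, and those on the right are the 4 NTC libraries.

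Counted over members, the degrader comparison tested 15, since 75 did not reach its count filter. Of the 15, 3 were called and all were lower with the degrader (20%), against 4.76% called among all genes tested and 3.12% called as lower. Of the 15, 8 passed the filter with all 4 libraries over its limit of 0.56 CPM, here of all counts, in DMSO only and 0 in degrader libraries only, so that passing and direction are not independent. Besides the 7SL pair this was RNU1-153P, a U1 pseudogene on chromosome 1 that shares its 146-base sequence with RNU1-68P and RNU1-143P and overlaps LINC01145 on the opposite strand. It was 1 of the 8 that passed through DMSO only. It had 0.120, 0.452, 0.387 and 0.120 nuclear CPM in degrader libraries, against 1.57, 1.19, 1.40 and 1.75 in DMSO, without overlap, and fell by 2.51 ± 0.43 on the log2 scale (adjusted p = 0.0162). That call was lost on leaving out degrader 1, degrader 4, DMSO 1 or DMSO 4, with values of -2.45 to -2.22 and adjusted p of 0.0586 to 0.0697. RNVU1-26 had 0.778, 0.226, 0.442 and 0.838 nuclear CPM, against 2.07, 1.66, 1.47 and 1.94 in DMSO, and its log2 fold change of -1.44 ± 0.35 missed the limit (adjusted p = 0.0518). Without degrader 2, 12 of 19 tested members were called, all of them lower, where 38.5% of all genes were called. The 9 added members included RNVU1-15, RNVU1-19 and RNVU1-26 of U1 and RNU4-2, and their adjusted p lay between 0.00139 and 0.0367.

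In KO against NTC, 32 members were tested and 20 were called, all lower in KO (62.5%), against 17% called among all genes tested and 10.7% called as lower. By class these were 11 of 15 U1, 4 of 5 U5, 1 of 4 U4, both U2 and the single tested members of U4atac and U11. RNVU1-31 fell by 6.88 ± 0.17 on the log2 scale (adjusted p = 8.96e-08), RNVU1-7 fell by 7.41 ± 0.20 (adjusted p = 1.22e-07) and RNVU1-26 fell by 4.03 ± 0.27 (adjusted p = 3.75e-05). Of the identical copies, RNVU1-18 fell by 4.15 ± 0.23 (adjusted p = 1.78e-05), RNVU1-29 by 3.07 ± 0.22 and RNU1-2 by 3.45 ± 0.32. RNVU1-6, at 90.9% identity, fell by 3.84 ± 0.26 (adjusted p = 3.91e-05). Of the 32, 21 passed the filter with all 4 libraries over its limit of 0.47 CPM, here of all counts, in NTC only, and 17 of these were among the called, so that their passing and their direction are not independent. Among the 17 were RNU5A-1, RNU5E-1, RNU4ATAC, RNU11, RNU4-2 and both U2 members. The other 3 called members, RNVU1-15, RNVU1-26 and RNVU1-29, were over the limit in all libraries of both groups. The calls of RNVU1-15, RNVU1-30 and RNU5E-4P were lost on leaving out any of KO 3, KO 4 or an NTC library (KO 2 as well, save for RNVU1-30), with adjusted p up to 0.123. Without KO 1, 28 of 34 tested members were called, 25 lower and 3 higher, where 40.9% of all genes were called.

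Between the control groups, NTC against DMSO, 27 of 33 tested members were called (81.8%), 18 higher and 9 lower in NTC. Among all genes 68.9% were called, 35.3% higher and 33.5% lower, so a call in this comparison marks most genes. RNVU1-7 was 7.87 ± 0.17 log2 units higher in NTC (adjusted p = 5.57e-15), RNVU1-31 was 7.37 ± 0.18 higher (adjusted p = 9.04e-15) and RNU5A-1 was 4.86 ± 0.22 higher (adjusted p = 1.58e-11). The 9 lower members were the 7SL pair, 4 of U1, 2 of U4 and 1 of U7. Filter passing again followed the high group, with 20 members over its limit in all libraries of NTC alone and 6 in those of DMSO alone. The control groups belong to different experiments, and the gap cannot be told apart from the experiment.

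**Figure D5:**
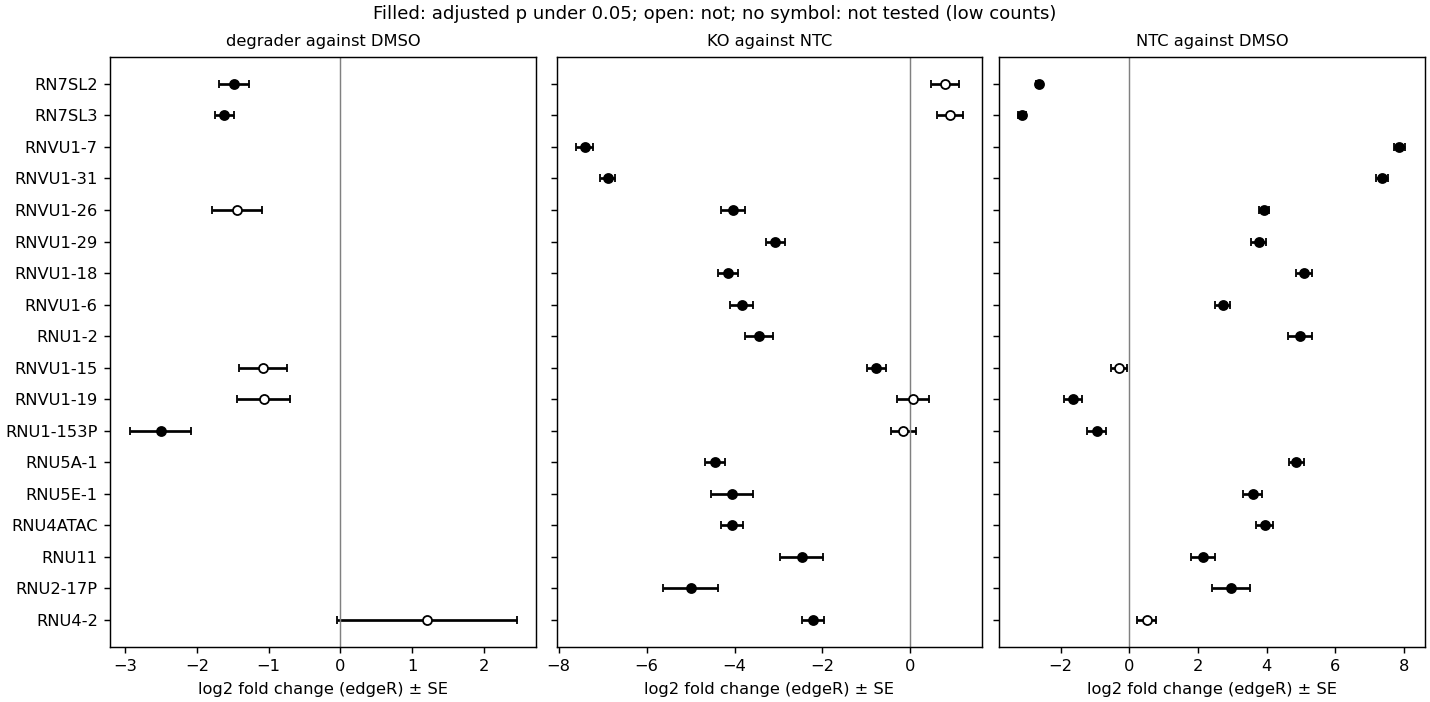
Log2 fold changes with their SE from edgeR for 18 members, in 1 panel each for degrader against DMSO, KO against NTC and NTC against DMSO. Filled symbols had an adjusted p under 0.05, open symbols did not, and members without a symbol were not tested. The U1, U5 and U4atac members lie left of 0 in the KO panel, except RNVU1-19 at 0.06, and right of 0 in the NTC panel, except RNVU1-15, RNVU1-19 and RNU1-153P, and the 7SL pair lies left of 0 in the degrader and NTC panels.

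The difference between the KO and degrader effects was called for 11 of 37 tested members (29.7%), against 6.58% of all genes. Without KO 1 it was called for 14 members, where 7.17% of all genes were called. Without degrader 2 it was called for 18, where 24.9% of all genes were, and without both libraries for 18, where 32% were. With all libraries, in 8 the KO value was the lower one, led by RNVU1-7 (-7.32 ± 0.90 log2 units, adjusted p = 0.000189) and RNVU1-31 (-6.22 ± 0.78, adjusted p = 0.000223), with RNVU1-26, RNVU1-6, RNVU1-29, RNU1-2, RNU5A-1 and RNU4ATAC. In 3 it was the higher value: the 7SL pair and RNU1-153P (2.32 ± 0.52, adjusted p = 0.014). The 8 members with a lower KO value are among those high in NTC. Of these 8, RNVU1-26 alone passed the count filter of the degrader comparison. The others could pass here through NTC, so that their passing and direction are not independent. Their degrader effect rests on few counts, in RNVU1-31 on 4, 0, 2 and 1 with the degrader, against 4, 5, 1 and 3 in DMSO.

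The proteins that make and carry these RNAs were read from 6 lists of 115 genes, all of them tested: snRNA transcription, Integrator, the SMN complex with Sm proteins, U snRNP proteins, the 7SK particle with P-TEFb, and the signal recognition particle. With the degrader edgeR called 0 of 115, where 15 had an unadjusted p under 0.05 and DESeq2 called 5. Among all genes edgeR called 4.76%, 20.7% had an unadjusted p under 0.05 and DESeq2 called 11.3%. Without degrader 2, edgeR called 48 of 115, 38 higher and 10 lower, where 38.5% of all genes were called. In KO against NTC 11 of 115 were called, 5 higher and 6 lower, against 17% of all genes. HEXIM1, the 7SK-bound inhibitor of P-TEFb, rose by 0.40 ± 0.07 log2 units (adjusted p = 0.00567), and SNRPA, a protein of the U1 particle, rose by 0.50 ± 0.12 (adjusted p = 0.0238). ELL2, an elongation factor with a role in plasma cells, fell by 0.46 ± 0.09 (adjusted p = 0.00952), and INTS13 of the Integrator fell by 0.30 ± 0.07 (adjusted p = 0.0196). Of 14 alternatives, SNRPA stayed called in 8 (adjusted p up to 0.297; lost on leaving out any NTC library) and INTS13 in 6 (up to 0.127; lost without KO 2, KO 4, NTC 1, NTC 2 or NTC 3). HEXIM1 and ELL2 stayed called in 13 and lost the call with scaling to total counts (adjusted p = 0.533 and 0.153). None of the 8 signal recognition particle proteins was called in KO, where 1 had an unadjusted p under 0.05 and DESeq2 called 0. In NTC against DMSO, where U1 and U5 RNAs were higher, 19 of 24 SMN and Sm genes and 21 of 35 U snRNP protein genes were lower (33.5% of all genes were), with median log2 fold changes of -0.55 and -0.32 against 0.02 for all genes. SNRPA fell by 1.24 ± 0.08 there (adjusted p = 1.24e-09). With scaling to total counts, which moved the median of all genes in that comparison by 0.25, 15 of 24 and 14 of 35 were lower, where 21.8% of all genes were. Without that scaling, 6 of 8 signal recognition particle genes were lower and 0 higher (median -0.42), and 7SL was lower too. Of 14 Integrator genes 4 were higher and 6 lower, and of 18 for snRNA transcription 3 and 7. Of 16 for 7SK and P-TEFb, 7 were higher and 5 lower. With that scaling, the signal recognition particle had 2 higher and 2 lower, and Integrator 7 and 2. The snRNA transcription list then had 5 and 6, and that of 7SK and P-TEFb 7 and 3. Of 18 other RNA polymerase III transcripts, BCYRN1 alone was tested, with a log2 fold change of -0.35 ± 0.74 with the degrader, 0.97 ± 0.65 in KO (neither called) and -3.51 ± 0.49 in NTC against DMSO (adjusted p = 6.15e-06).

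Finally, several of the best-known genes of these families had no counts at all. RN7SK, RN7SL1, RNU12, RNU2-1, RNU7-1, RNVU1-14, RNVU1-22 and RNVU1-24, none with a pseudogene symbol, were at 0 in all 16 libraries, while RN7SL2 had 66544 counts in all. Of the 257 genes of the rule at 0, 25 overlap an exon of another annotated gene, against 8 of the 256 that had counts, and among the 8 named here 5 do. RN7SL1 lies in an exon of ENSG00000283029, which had 31 counts, and RNVU1-14 in one of ENSG00000276216, which averaged 5.78 nuclear CPM with the degrader, 12.2 in DMSO, 6.90 in KO and 12.9 in NTC. RN7SK overlaps another 7SK entry on the same strand, ENSG00000277313, which also had 0 counts. RNU7-1 overlaps C12orf57 on the same strand, which had 7579 counts. RNU2-2P lies in WDR74, which averaged 191.4 nuclear CPM with the degrader, 191.8 in DMSO, 69.0 in KO and 90.4 in NTC. A value of 0 for these genes is what the tables list, and how reads in overlapping genes were treated is not given in the sources used here. Statements on U12 and 7SK, and on the main U2 gene, could not be drawn from these counts.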

How the data were processed

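The deposited files hold integer counts per gene, 1 table per library. Per the submitters' processing notes the authors' tools were STAR 2.5.2b, Trimmomatic 0.36, DESeq2 1.16.1 and, from Subread 1.5.2, featureCounts, on GRCh38. For strand use, reads with several matches and annotation release, settings are not given in sources used here. The members, gene lists and tests were chosen with earlier results of these data known. Symbols came from a table of gene names (40907 of 57500 identifiers had one). Positions, exons and introns came from the annotation deposited with the counts, and sequences from GENCODE 29. In GENCODE 29, 96.1% of matched identifiers had the same position.

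Levels are nuclear CPM, that is counts scaled to the nuclear total of a library without TMM. Tests used edgeR 4.0.16 in R 4.3.3 (filterByExpr, TMM, quasi-likelihood test on group), each comparison on its own 8 libraries and the difference of effects on all 16, and a gene was called where its adjusted p (Benjamini-Hochberg, over all genes tested) was under 0.05. SE is the log2 fold change over the root of the F statistic and can fall below counting error at low counts. Sums carry no test. The fit was tested on simulated data. No library was a duplicate of another (lowest chi-square per degree of freedom 2.74). Replicate numbers did not pair libraries: correlations of deviations over 8 pairs ran from -0.436 to 0.129. Alternatives were DESeq2 1.42.0, total count scaling, mitochondrial genes removed, no filter, the replicate block and left-out libraries, with KO 1 and 4 left out together added after seeing the data.

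Named were RN7SK, the 7SL genes, up to 3 members per class with the most counts, up to 8 called members per comparison by smallest p, EP300 and up to 4 genes per list by smallest p. RNU1-1, RNU1-3, RNU1-27P, RNU4-1, RNU5D-1, RNU7-57P, RNVU1-2A, RNVU1-15, RNVU1-19, RNVU1-30, the genes at 0, those at the limit of 20 counts and the genes around a member were chosen after their values were seen. Some sequences are not reported here. Intervals and floors cover counting error only.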

Additional observations from a re-analysis of the deposited data

Results flagged for a closer look

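Single libraries stood apart from the other 3 of their group in 25 of 132 sets of 4 values examined, where chance gives about 1 in 20 for independent, normal values. Class sums were examined beside their own members and some sets held few counts, so that rate is only a rough guide here. Of the 25, 10 fell on degrader 2 and 9 on KO 1, the pair with the most mitochondrial counts (64.87% and 47.74%). In degrader 2, in nuclear CPM, the sums of U4 (39.79), U7 (30.07), U2 (13.34) and U5 (5.426) stood apart, as did RNU4-62P (14.47), RNU4-2 (11.3), RNU2-28P (7.009), RNU7-45P (4.296), RNVU1-7 (1.809) and RNU7-61P (1.13). In KO 1 it was the sums of U7 (31.19), U1 (26.57) and U4 (19.06), with RNU7-45P (7.972), RNU4-62P (7.51), RNU4-47P (6.701), RNU5E-4P (3.466), RNU2-28P (2.195) and RNU4ATAC18P (1.502). The part of the mitochondrial share in these values was not tested.

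KO 4 stood apart in 7SL, with a sum of 344.1 nuclear CPM and 331.8 for RN7SL2, at a mitochondrial share of 11.36%. KO 3 stood apart in RNU2-17P at 0.1022 nuclear CPM, since the other KO libraries had no count. DMSO 3 was high in the U4atac sum (1.617 nuclear CPM) and in RNU4ATAC (0.7352), and NTC 1 was low in RNVU1-18 (6.815).

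The effect in KO against NTC differed from that of the degrader against DMSO, by edgeR's quasi-likelihood test of the difference on all 16 libraries (adjusted p under 0.05), in 11 members. The difference, in log2 units, was -7.32 for RNVU1-7, -6.22 for RNVU1-31, -4.0 for RNU1-2, -3.33 for RNU5A-1, -2.91 for RNVU1-6, -2.67 for RNU4ATAC, -2.64 for RNVU1-26 and -2.27 for RNVU1-29. It was 2.46 for RN7SL3, 2.32 for RNU1-153P and 2.24 for RN7SL2. In the first 8, every NTC library lay above every other library. Of these 8, RNVU1-26 alone passed the count filter of the degrader comparison.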

How the results depend on the processing

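The count of called members was 3 with the degrader, against 6 with DESeq2 and 1 with the replicate block (RN7SL3; RN7SL2 then had an adjusted p of 0.0669 and RNU1-153P one of 0.154), and from 2 to 12 with 1 library left out, the 12 being without degrader 2. Total count scaling gave 2. KO against NTC gave 20 calls, 17 with the replicate block (RNVU1-15, RNVU1-30 and RNU5E-4P lost) and 17 to 28 with 1 library left out. NTC against DMSO gave 27, 28 to 32 with 1 library left out and 46 with no filter on low counts, which tested all 90 members. The difference of effects gave 11, 14 without KO 1, and 18 without degrader 2 or without both, where the share of all genes called also moved, to 7.17%, 24.9% and 32% (6.58% with all libraries). The replicate block left the counts of the last 2 comparisons at 27 and 11. With total count scaling RN7SL2 (adjusted p = 0.0878) and RNVU1-29 (0.0616) lost their call in the difference. The log2 ratio of the U1 sum, NTC over DMSO, was 3.29, against 3.64 over members with no pseudogene symbol. Signs turned only in values not called with all libraries: RNU5E-4P with the degrader (-0.45 to 0.10 with 1 library left out), RNU4-62P with the degrader (-0.94 to 1.21, and -0.07 with the replicate block), in the difference (-0.57 to 2.40) and in KO without KO 1 and 4 (-0.29), RNU4-47P in KO without KO 1 and 4 (-0.31), RNU4-2 with the degrader (-1.87 to 1.69, the lowest called, without degrader 2, at adjusted p = 0.00621, and -0.52 with the replicate block), and RNU1-153P in KO (-0.27 to 0.04, and 0.07 without KO 1 and 4). The cause was not tested. Counted over single genes and alternatives together, 1249 other values kept their direction and side of the threshold, 102 lost the call, 22 gained it and 4 moved. Replicate numbers did not pair the libraries. Depth limits the low members: 75 of 90 could not be tested with the degrader and 58 in KO.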
